A study of Mus musculus with 3 samples.

Results

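The genes described here are 8 members of the Notch pathway in the mouse corneal epithelium: the receptors Notch1, Notch2 and Notch3, the ligands Jag1, Jag2 and Dll1, and the target genes Hes1 and Hey1. They were chosen by name, and all 8 are among the 17931 genes of the deposited count table. They were followed over the 8 cell classes of the deposited annotation, in each of 3 libraries. Single-cell RNA sequencing was done on healthy, untreated C57BL/6J corneal epithelium with a droplet kit that counts 3′ ends by unique molecular identifiers (UMIs), and no library carries a treatment or a mutation. For library 1, the 4 corneas of 2 males were pooled at 20 weeks of age, for library 2 the 4 corneas of 2 females at 11 weeks, and for library 3 a total of 7 corneas of 7 males at 10 weeks. The classes are limbal (737 cells), 2 transit-amplifying classes named TAC1 (4136) and TAC2 (3186), conjunctival (2422), superficial (5240), wing (13447), basal (8829) and immune (114).

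Notch receptors are single-pass membrane proteins that are activated by ligands of the Jagged and Delta families on a neighbouring cell. Ligand pulling opens the receptor to an ADAM protease and then to the gamma-secretase complex, and the freed intracellular domain joins Rbpj and a Mastermind protein in the nucleus to switch on Hes and Hey repressors. In stratified epithelia the pathway is known for its part in the step out of the basal layer, and in the mouse cornea Notch1 is known from gene deletion to be needed for the epithelium to keep its corneal character during repair. The limbus, at the rim of the cornea, holds the stem cells of the epithelium. Basal cells give rise to wing cells above them, and wing cells to superficial cells, which are shed.

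Depth was 177449217 to 190393121 UMIs per library, with a median of 8334 to 16159.5 UMIs per cell. Pairs of libraries shared 32 to 57 cell barcodes, of which 7 to 14 were in the same class. The classes were annotated by the authors on these same cells, so a difference between classes is not independent of how the classes were drawn. Markers mostly peaked in the class they name, such as Gpha2 in limbal, Trp63 in basal, Mki67 in TAC2, Slurp1 in superficial and Ptprc in immune cells. Krt15 of the limbal set peaked in conjunctival and Krt5 of the basal set in wing cells, and Krt13 and Krt7, of the conjunctival set, in superficial cells. Cd63 of the limbal set peaked in immune cells, Col17a1 of the basal set in TAC1 and Krt6a of the wing set in superficial cells. The cycling marker Pcna peaked in TAC1 cells. The vessel marker Pecam1, the 1 of 4 vessel markers in the table, lay between 0 and 0.81 CPM in the 7 epithelial classes, and 2 pericyte markers summed to at most 4.29 CPM. Levels are in CPM, the UMIs of a gene summed over a class and library relative to all UMIs of that sum, and are scaled over all 24 sums by edgeR's TMM factors, unless the class-total scale, which leaves these factors out, is named. Differences between classes are log2 fold changes of edgeR's quasi-likelihood F test on these sums, with the library as a block, their standard error (SE) and a p adjusted over all genes tested by Benjamini and Hochberg. They are called at an adjusted p under 0.05. The libraries differ in age, sex and mice, so p-values measure the spread of a class difference over 3 pools.

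The members held 5717 (Dll1) to 141636 (Hes1) UMIs, except Hey1, which had 4 UMIs in all 38111 cells. By the mouse GRCm38 annotation of GENCODE M21 the genes are protein coding, and lie at chr2:26457903-26516663 (Notch1, minus strand), chr3:98013527-98150361 (Notch2, plus), chr17:32120820-32166852 (Notch3, minus), chr2:137081456-137116644 (Jag1, minus), chr12:112907819-112929776 (Jag2, minus), chr17:15367354-15376872 (Dll1, minus), chr16:30064384-30067796 (Hes1, plus) and chr3:8663359-8667256 (Hey1, minus). Genes that overlap a member on the other strand and are in the table held few UMIs, namely 786 for 0610009E02Rik and 40 for Gm13568 at Notch1 and 45 for Gm17276 at Notch3. The promoters of Jag2, Dll1 and Notch2 are shown because Jag2 and Dll1 were the members that dropped most out of the basal layer while Notch2 went the opposite way. Each window runs from 250 bases before to 50 after a RefSeq transcription start on GRCm38.p6, 5′ to 3′ on the strand of the gene, and so covers the upstream region and the start of the first exon. The capitals mark the GC box GGGCGG on either strand, the binding motif of Sp-family factors. The windows are chr12:112929446-112929745 (Jag2), chr17:15376883-15377182 and chr17:15375774-15376073 (the upstream and downstream starts of Dll1) and chr3:98013288-98013587 (Notch2).
Jag2: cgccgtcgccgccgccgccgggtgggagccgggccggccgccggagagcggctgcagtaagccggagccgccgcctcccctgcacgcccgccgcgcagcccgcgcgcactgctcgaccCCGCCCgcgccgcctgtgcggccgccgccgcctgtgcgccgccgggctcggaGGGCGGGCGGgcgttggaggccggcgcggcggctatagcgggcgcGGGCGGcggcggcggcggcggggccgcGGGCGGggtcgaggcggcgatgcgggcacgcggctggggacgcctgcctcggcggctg
Dll1 upstream start: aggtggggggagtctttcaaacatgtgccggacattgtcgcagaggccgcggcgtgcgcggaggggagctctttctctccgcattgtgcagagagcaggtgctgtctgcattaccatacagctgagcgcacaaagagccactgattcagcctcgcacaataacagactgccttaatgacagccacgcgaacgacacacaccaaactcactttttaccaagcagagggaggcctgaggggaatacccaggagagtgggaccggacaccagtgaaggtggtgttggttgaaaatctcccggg
Dll1 downstream start: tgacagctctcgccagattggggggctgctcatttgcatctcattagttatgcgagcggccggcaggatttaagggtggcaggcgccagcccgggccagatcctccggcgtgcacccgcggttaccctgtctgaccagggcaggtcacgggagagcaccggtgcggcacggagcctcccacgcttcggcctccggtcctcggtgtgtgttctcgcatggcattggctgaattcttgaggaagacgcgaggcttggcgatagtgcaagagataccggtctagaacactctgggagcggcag
Notch2: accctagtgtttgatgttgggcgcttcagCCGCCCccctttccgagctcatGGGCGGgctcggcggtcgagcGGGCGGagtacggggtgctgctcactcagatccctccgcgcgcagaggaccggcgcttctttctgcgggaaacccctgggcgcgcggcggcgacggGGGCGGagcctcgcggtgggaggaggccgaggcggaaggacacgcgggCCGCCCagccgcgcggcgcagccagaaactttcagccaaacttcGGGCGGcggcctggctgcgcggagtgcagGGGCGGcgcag

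GC boxes numbered 5 in the Jag2 window, of which 2 overlap, and 7 in the Notch2 window, and there was no match in either Dll1 window. Among the other members with a window in the table, Notch1 had 5 and Notch3 had 4, and Jag1 had none. Of all 32851 RefSeq promoter windows of this length 35.7% held the motif. The core motif of Rbpj, TGGGAA, had no match in any of the 7 windows of the 6 genes, against 25.6% of all windows. The AP-1 motif TGANTCA had 1 match, in the upstream window of Dll1, against 7.81% of all windows. The TEAD motif GGAATG matched at 2 places in the Notch1 window and in no other, against 14.7% of all windows. All 4 motifs were sought on both strands. A match is a description of letters, and no match says only that these letters are not in this window.

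Jag2, a Jagged-family ligand, was a gene of the basal layer and its dividing cells. In libraries 1, 2 and 3 its level was 3.91, 8.16 and 3.96 CPM in conjunctival, 7.54, 8.04 and 3.26 CPM in superficial and 7.03, 8.98 and 5.23 CPM in wing cells. It was 80.0, 76.9 and 54.7 CPM in limbal, 101, 96.2 and 70.6 CPM in TAC1, 73.3, 76.0 and 49.3 CPM in TAC2, and 99.96, 98.6 and 68.9 CPM in basal cells. Every one of the 12 values in limbal, TAC1, TAC2 and basal cells was thus above every one of the 9 in conjunctival, superficial and wing cells. In wing against basal cells Jag2 fell, at -3.72 ± 0.07 (log2 fold change ± SE, edgeR adjusted p = 1.65e-12), and in conjunctival against basal cells with -4.10 ± 0.17 (edgeR adjusted p = 8.16e-08). TAC2 cells had a smaller drop of -0.38 ± 0.05 (edgeR adjusted p = 1.04e-06), which turned to 0.14 (edgeR adjusted p = 0.087) when cells were given to the nearest class again from 50% of their UMIs and tested on the rest. In TAC1 cells the log2 fold change was 0.04 with a 95% interval of -0.03 to 0.11 (edgeR adjusted p = 0.409), and 0.58 (edgeR adjusted p = 2.33e-16) with classes reassigned in that way. In superficial against wing cells it was -0.12 with an interval of -0.41 to 0.17 (edgeR adjusted p = 0.434) with TMM. With class totals alone it was -1.10 (edgeR adjusted p = 1.56e-06), a scaling that moved the median of all genes in this comparison to -1.08.

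Limbal cells carried less Jag2 than basal cells in all 3 libraries, with a log2 fold change of -0.38 ± 0.09 (edgeR adjusted p = 0.000262). The call was lost with cells thinned to 2000 UMIs (-0.17, edgeR adjusted p = 0.495) and without the 10% of cells with the highest doublet scores (-0.25, edgeR adjusted p = 0.0609). It was also lost without the library as a block (-0.37, edgeR adjusted p = 0.134). With reassigned classes the value was 0.0399 (edgeR adjusted p = 0.824). Nor was the difference seen without limbal cells that also carried the mucosal keratins Krt4, Krt13 or Krt19. Without the cells that held at least 3 UMIs of these keratins among 2000 UMIs drawn per cell, 38, 86 and 62 in libraries 1, 2 and 3, the log2 fold change was 0.06 (edgeR adjusted p = 0.694). Limbal cells with these keratin UMIs had 32.2 ± 8.80 CPM of Jag2 (class-total scale, mean ± SD, n = 3), against 111 ± 24.6 CPM in limbal cells without them. The 38, 86 and 62 cells with them held 894086, 1568327 and 668953 UMIs. The 124, 260 and 157 cells without them held 1476048, 2700548 and 1053146 UMIs, so depth per cell differed too. The 5 keratins of the conjunctival marker list summed to 1565 to 2181 CPM in limbal cells against 26.0 to 66.0 CPM in basal cells, and what the keratin-bearing limbal cells are was not tested. Dcn, the 1 of 4 stromal keratocyte markers in the table, had 7.53 to 10.7 CPM in limbal cells against 0 to 0.255 CPM in basal cells. Agr2 of the goblet cell list had 28.1 to 49.7 CPM in limbal and 42.3 to 57.2 CPM in conjunctival cells, against 0.446 to 0.948 CPM in basal cells, while the other goblet markers in the table, Spdef and Tff1, were at 0 in limbal and basal cells. The part of keratocyte or goblet cell RNA in the limbal and conjunctival values of any gene described here was not tested.

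The share of cells with at least 1 Jag2 UMI followed the same division when every cell was thinned to 2000 UMIs. In libraries 1, 2 and 3 the share was 24.7, 17.6 and 11.4% of limbal cells and 1.46% (exact 95% binomial interval 1.08 to 1.93), 1.57% (1.18 to 2.04) and 1.01% (0.786 to 1.28) of wing cells, against 20.2% (18.5 to 21.95), 20.3% (18.7 to 21.9) and 14.3% (13.2 to 15.4) of basal cells. Unthinned, the mean share was 8.61% of wing cells against 52.2% of basal cells. Intervals cover counting error only. Immune cells, taken as a measure of what free RNA could give although they can express Notch genes of their own, had 14 Jag2 UMIs in 114 cells, or 42.8 CPM of their own total (exact Poisson 95% interval 23.4 to 71.8), with a median of 1351 to 2424 UMIs per cell. The class-total level of Jag2 was 4.53 CPM in conjunctival, 3.16 CPM in superficial and 6.64 CPM in wing cells. These 3 levels lie below that of the immune class. Median UMIs per cell were 9334 to 21899 in the 3 classes, so free RNA can take a larger share of the shallower immune cells. The comparison in CPM therefore sets no floor, and the share of free RNA in the 3 levels was not tested. The immune Jag2 UMIs lay in 2, 4 and 0 cells of libraries 1, 2 and 3. On the same scale superficial cells had 5.86 CPM of Notch1, 9.66 CPM of Notch3, 4.91 CPM of Jag1 and 88.5 CPM of Hes1, below the pooled immune levels of 24.4, 42.8, 9.17 and 125 CPM. Notch2 had 14.9 CPM in TAC1, 20.7 CPM in TAC2, 27.4 CPM in superficial and 15.5 CPM in basal cells, at or below the 27.5 CPM of immune cells. Notch3 in limbal (32.7 CPM) and TAC1 cells (42.3 CPM) was not above its immune level either. The same limit holds for these values, and the share of free RNA in them was not tested. At 2000 UMIs 1 of 16, 0 of 35 and 0 of 5 immune cells had a Jag2 UMI.

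**Figure D1:**
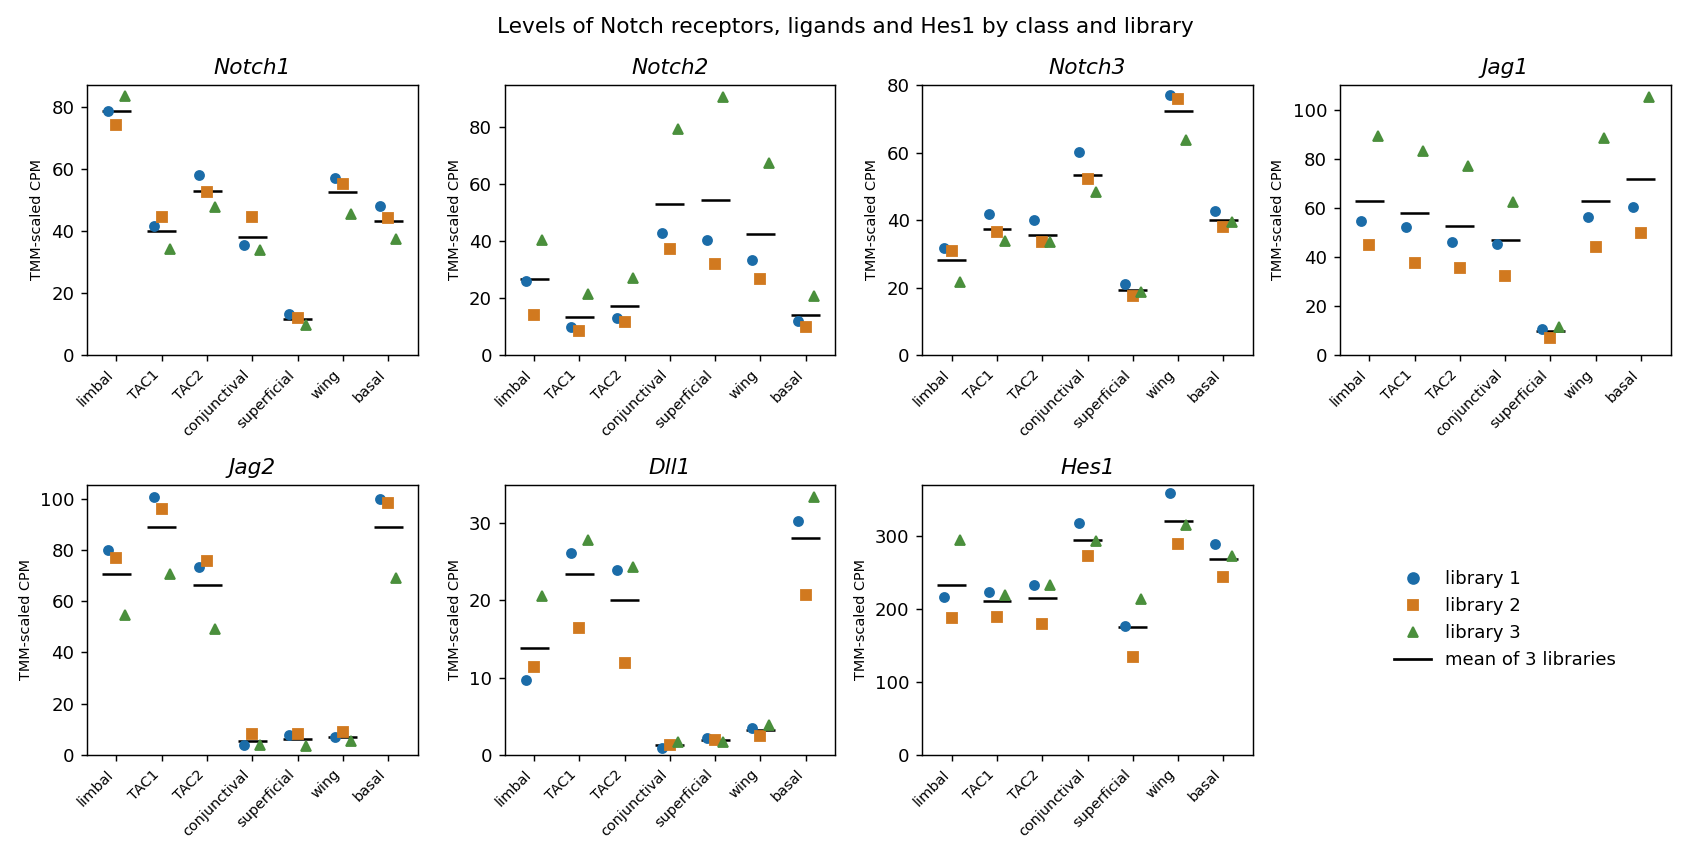
Level of each member (TMM-scaled CPM, y axis, linear and starting at 0) in each epithelial class (x axis); points are the 3 libraries and the bar is their mean. Jag2 and Dll1 are low in conjunctival, superficial and wing cells and high in limbal, TAC1, TAC2 and basal cells, while Notch1 is highest in limbal cells at 74.0 to 83.4 CPM and Notch3 in wing cells at 63.8 to 77.2 CPM.

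Dll1, a Delta-family ligand, had the same division of classes as Jag2. Conjunctival cells had 0.902 to 1.68 CPM, superficial cells 1.66 to 2.22 CPM and wing cells 2.36 to 3.85 CPM. In libraries 1, 2 and 3 it had 9.65, 11.3 and 20.6 CPM in limbal, 26.2, 16.4 and 27.8 CPM in TAC1, 24.0, 11.9 and 24.4 CPM in TAC2, and 30.4, 20.6 and 33.4 CPM in basal cells, which were the highest in each library. Dll1 fell in wing against basal cells with a log2 fold change of -3.18 ± 0.07 (edgeR adjusted p = 1.56e-12) and in conjunctival against basal cells with -4.47 ± 0.17 (edgeR adjusted p = 4.39e-11). In TAC1 against basal cells the log2 fold change was -0.22 ± 0.06 (edgeR adjusted p = 0.000649), which turned to 0.25 (edgeR adjusted p = 0.00763) when classes were reassigned. It kept direction and call in 10 of 15 alternatives. It was lost, among others, with cells thinned to 2000 UMIs (-0.13, edgeR adjusted p = 0.509) and with DESeq2 (-0.23, DESeq2 adjusted p = 0.108). In TAC2 cells Dll1 was called lower, with values of -0.56 to 0.0607 over 14 alternatives, of which 12 kept direction and call. In limbal cells the drop was deeper, at -1.08 ± 0.15 (edgeR adjusted p = 6.98e-08), and the levels of libraries 1 and 2 lay below every basal value while that of library 3 was level with the lowest. This call was lost with reassigned classes (-0.45, edgeR adjusted p = 0.0838) and with cells thinned to 2000 UMIs (-0.68, edgeR adjusted p = 0.0506). Superficial cells had a log2 fold change of -0.67 ± 0.19 against wing cells (edgeR adjusted p = 0.00532), a call kept in 10 of 14 alternatives. It was lost without library 3 (-0.43, edgeR adjusted p = 0.0839) and with reassigned classes (-0.32, edgeR adjusted p = 0.206). Thinned cells (-1.02, edgeR adjusted p = 0.114) and DESeq2 (-0.60, DESeq2 adjusted p = 0.0532) made no call either. Immune cells had 0 Dll1 UMIs of 327316, which allows up to 9.17 CPM, so the low levels of the other classes cannot be set against a background.

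**Figure D2:**
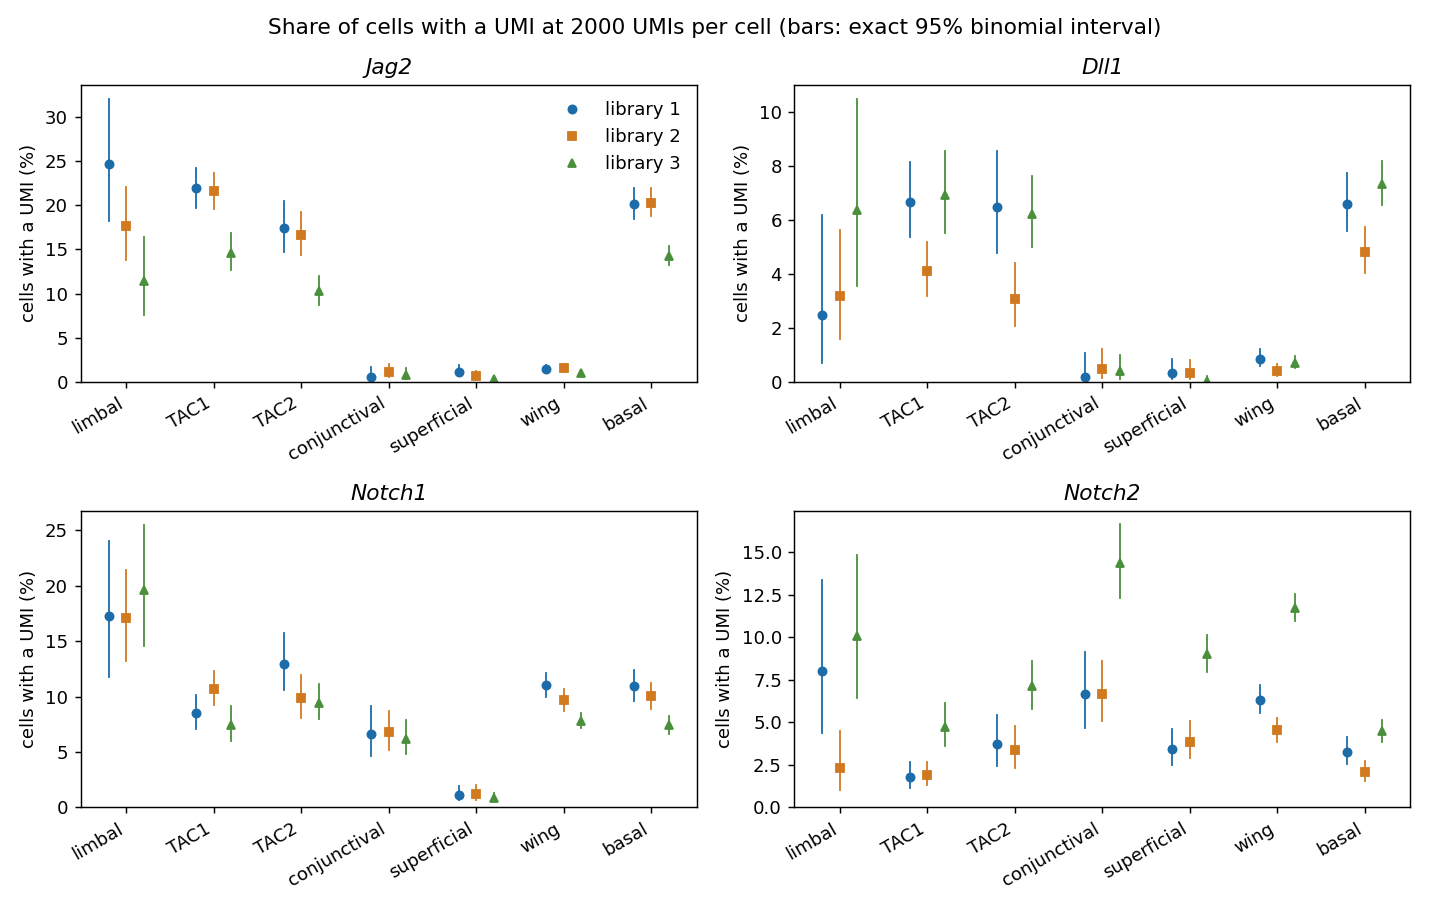
Share of cells (%, y axis, linear from 0) with at least 1 UMI of Jag2, Dll1, Notch1 or Notch2 after thinning every cell to 2000 UMIs, by class (x axis); points are libraries and bars exact 95% binomial intervals. For Jag2 the wing libraries lie between 1.01 and 1.57% and the basal libraries between 14.3 and 20.3%, and for Notch1 the limbal libraries lie between 17.1 and 19.6%, above basal libraries between 7.40 and 10.9%.

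Jag1, the other Jagged-family ligand, was spread over the basal and wing layers alike and was lost in the outermost one. TAC1 cells had 37.7 to 83.3 CPM, TAC2 cells 35.4 to 77.2 CPM and conjunctival cells 32.4 to 62.5 CPM. Its levels in libraries 1, 2 and 3 were 54.7, 44.9 and 89.4 CPM in limbal, 10.6, 6.95 and 11.5 CPM in superficial, 56.1, 44.2 and 88.8 CPM in wing, and 60.5, 49.8 and 105 CPM in basal cells. No superficial value reached the lowest value of another epithelial class, and library 3 was the highest in every class. Jag1 fell in superficial against wing cells with a log2 fold change of -2.60 ± 0.09 (edgeR adjusted p = 3.42e-12). The other drops against basal cells were smaller, at -0.27 ± 0.04 in TAC1, -0.39 ± 0.05 in TAC2, -0.65 ± 0.08 in conjunctival and -0.24 ± 0.05 in wing cells, with edgeR adjusted p of 3.23e-08, 1.24e-06, 5.83e-06 and 0.000578. In limbal cells it was -0.22 ± 0.09 (edgeR adjusted p = 0.0419), a call kept in only 4 of 16 alternatives. It was lost, among others, without library 1 (edgeR adjusted p = 0.126) and without library 3 (edgeR adjusted p = 0.223). Class totals alone gave -0.11 (edgeR adjusted p = 0.377) and DESeq2 -0.23 (DESeq2 adjusted p = 0.2). Against basal, TAC1 and TAC2 cells summed the limbal value was -0.0189 (edgeR adjusted p = 0.885). It was 0.00998 (edgeR adjusted p = 0.96) with reassigned classes. With them the wing drop was -0.0886 (edgeR adjusted p = 0.102), though only 56.0% of wing cells kept their class.

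The ligand UMIs of a class were therefore made up differently by layer. Of the UMIs of Jag1, Jag2 and Dll1 together, Jag2 held 48.8% ± 13.5 in limbal (mean ± SD, n = 3), 53.0% ± 12.9 in TAC1, 48.5% ± 14.6 in TAC2, 11.0% ± 7.41 in conjunctival, 10.7% ± 5.41 in wing and 48.0% ± 13.1 in basal cells. Jag1 held 86.5% ± 7.90 in conjunctival and 84.9% ± 5.59 in wing cells, against 37.3% ± 11.7 in basal cells. Superficial cells had only 776 ligand UMIs in all, and their makeup says little. Jag2 UMIs per Dll1 UMI were 2.03, 3.80 and 1.36 in wing cells of libraries 1, 2 and 3, against 3.29, 4.78 and 2.06 in basal cells. The ratio was lower in wing cells in each of the 3 libraries. Because a 3′ kit counts 1 end of each transcript, values are not divided by gene length, and no gene is ranked above another from them.

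**Figure D3:**
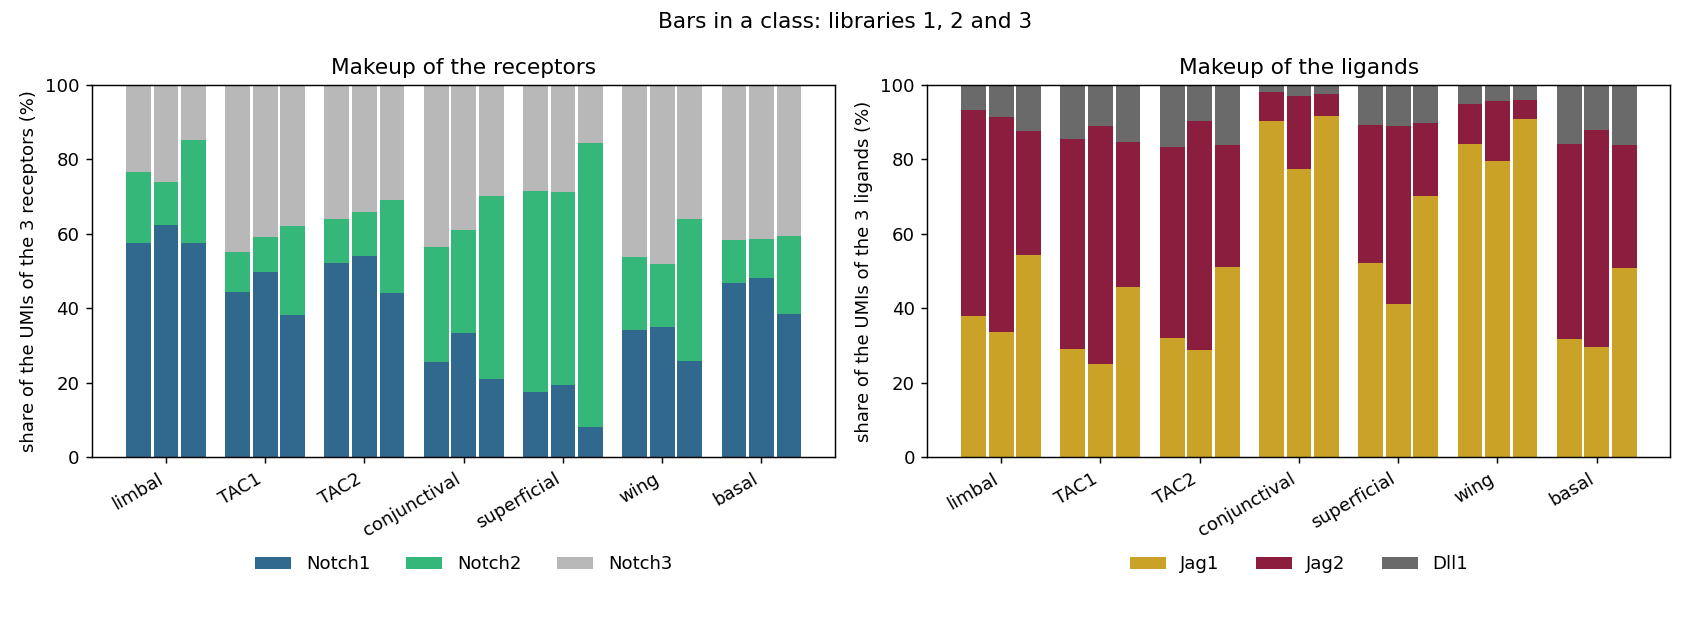
Makeup of the receptor UMIs (left) and ligand UMIs (right) of each epithelial class (x axis), as the share of each gene in percent (y axis); the 3 bars of a class are libraries 1, 2 and 3. Jag1 takes 79.6 to 90.7% of the ligand UMIs of wing cells against 29.5 to 50.7% of those of basal cells, and Notch1 takes 57.4 to 62.2% of the receptor UMIs of limbal cells against 38.4 to 48.1% of those of basal cells.

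Notch1, the receptor best known in the epidermis and cornea, was highest in limbal cells and lowest in superficial cells. TAC1 cells had 34.0 to 44.5 CPM and conjunctival cells 33.9 to 44.5 CPM. In libraries 1, 2 and 3 it had 78.6, 74.0 and 83.4 CPM in limbal, 57.8, 52.6 and 47.8 CPM in TAC2, 13.1, 11.9 and 9.77 CPM in superficial, 56.9, 55.0 and 45.4 CPM in wing, and 48.1, 44.2 and 37.4 CPM in basal cells. The 3 limbal values lay above every value of the other classes, and the 3 superficial values below. From high to low the order was limbal, TAC2, wing, basal, TAC1, conjunctival and superficial, and TAC2 did not differ from wing, basal from TAC1, or TAC1 from conjunctival cells beyond the spread over libraries. Notch1 rose in limbal against basal cells with a log2 fold change of 0.81 ± 0.09 (edgeR adjusted p = 4.38e-10) and in TAC2 against basal cells with 0.34 ± 0.05 (edgeR adjusted p = 1.01e-05). It fell in superficial against wing cells with -2.09 ± 0.07 (edgeR adjusted p = 4.10e-13). In wing against basal cells the rise was 0.22 ± 0.05 (edgeR adjusted p = 0.000872) with TMM and 0.04 (edgeR adjusted p = 0.462) when each class was scaled to its total alone. The drop in conjunctival against basal cells, -0.24 ± 0.09 (edgeR adjusted p = 0.0275), kept its call in 6 of 14 alternatives. It was lost, among others, without library 1 (-0.09, edgeR adjusted p = 0.512) and without library 3 (-0.25, edgeR adjusted p = 0.0787). RLE scaling (-0.21, edgeR adjusted p = 0.0553) and DESeq2 (-0.21, DESeq2 adjusted p = 0.172) made no call either. TAC1 cells had -0.07, with an interval of -0.17 to 0.02, and -0.22 (edgeR adjusted p = 0.00111) with reassigned classes. Thinned to 2000 UMIs per cell, the TAC2 rise was 0.15 (edgeR adjusted p = 0.302) and made no call.

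The limbal rise of Notch1 was also seen in the share of cells. At 2000 UMIs per cell 17.3% (11.8 to 24.0), 17.1% (13.2 to 21.4) and 19.6% (14.6 to 25.5) of limbal cells had a Notch1 UMI in libraries 1, 2 and 3, against 10.9% (9.64 to 12.4), 10.0% (8.86 to 11.3) and 7.40% (6.61 to 8.26) of basal cells. The intervals did not overlap in libraries 2 and 3, and did in library 1. In immune cells at that depth 2 of 56 cells had one, and unthinned the share was 50.4% of limbal against 33.2% of basal cells. Among limbal cells, those with a UMI of the division markers Mki67 or Top2a among 2000 drawn had 51.4 ± 16.7 CPM of Notch1 (class-total scale), against 99.7 ± 9.62 CPM in those without. The former were only 12, 33 and 17 cells in libraries 1, 2 and 3, with 26, 41 and 9 Notch1 UMIs. They held 489100, 610952 and 266093 UMIs of all genes. The 150, 313 and 202 cells without held 1881034, 3657923 and 1456006, so depth per cell differed too. Limbal cells with and without mucosal keratins had 83.5 ± 2.70 and 96.4 ± 9.20 CPM.

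Notch2 was low in basal and TAC1 cells and higher in wing and conjunctival cells. TAC1 cells had 8.25 to 21.3 CPM and TAC2 cells 11.5 to 26.9 CPM. In libraries 1, 2 and 3 it had 26.1, 13.96 and 40.2 CPM in limbal, 42.6, 37.2 and 79.3 CPM in conjunctival, 40.2, 31.8 and 90.6 CPM in superficial, 33.2, 26.8 and 67.3 CPM in wing, and 11.8, 9.77 and 20.6 CPM in basal cells. The conjunctival, superficial and wing ranges lay above the basal range. The limbal range overlapped it, and within each library limbal cells were above basal cells. The log2 fold change against basal cells was 1.51 ± 0.06 in wing (edgeR adjusted p = 4.52e-10), 1.86 ± 0.08 in conjunctival (edgeR adjusted p = 1.96e-10), 0.83 ± 0.14 in limbal (edgeR adjusted p = 1.76e-06) and 0.33 ± 0.08 in TAC2 cells (edgeR adjusted p = 0.00149). The TAC2 call was lost with reassigned classes (0.0701, edgeR adjusted p = 0.622), without the 10% of cells with the highest doublet scores (0.19, edgeR adjusted p = 0.0799) and with DESeq2 (0.31, DESeq2 adjusted p = 0.0943). TAC1 cells had -0.09, with an interval of -0.25 to 0.06, and -0.48 (edgeR adjusted p = 4.56e-05) with reassigned classes. Superficial against wing cells had a rise of 0.41 ± 0.06 (edgeR adjusted p = 1.70e-05) with TMM that turned to -0.57 (edgeR adjusted p = 4.60e-07) with class totals alone, a scaling that moved the median of all genes in this comparison to -1.08. The share of cells with a Notch2 UMI at 2000 UMIs was 3.43, 3.86 and 8.98% of superficial against 6.33, 4.53 and 11.7% of wing cells, so no order between these 2 layers is read.

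Notch3 was highest in wing cells. TAC1 and TAC2 cells had 33.7 to 41.9 and 33.4 to 40.1 CPM. Its levels in libraries 1, 2 and 3 were 31.8, 31.0 and 21.6 CPM in limbal, 60.1, 52.1 and 48.3 CPM in conjunctival, 21.1, 17.6 and 18.6 CPM in superficial, 77.2, 76.1 and 63.8 CPM in wing, and 42.8, 37.9 and 39.5 CPM in basal cells. The lowest wing value was above the highest value of every other class. Notch3 rose in wing against basal cells with a log2 fold change of 0.79 ± 0.06 (edgeR adjusted p = 1.38e-07), and fell in superficial against wing cells with -1.83 ± 0.07 (edgeR adjusted p = 2.32e-12). In limbal against basal cells it fell with -0.52 ± 0.12 (edgeR adjusted p = 0.000259), the opposite sign to Notch1 and Notch2. The conjunctival rise of 0.36 ± 0.08 (edgeR adjusted p = 0.00069) was 0.03 (edgeR adjusted p = 0.705) with class totals alone. TAC1 and TAC2 cells had log2 fold changes of -0.05 (interval -0.14 to 0.04; 0.005 without library 3) and -0.12 (edgeR adjusted p = 0.0847) against basal cells. With reassigned classes these were -0.45 and -0.42 (edgeR adjusted p = 1.42e-09 and 5.32e-07). Notch3 is also a gene of pericytes and vascular smooth muscle, and the 2 markers of those cells in the table, Acta2 and Cspg4, summed to 0.36 to 1.08 CPM in wing against 1.41 to 3.68 CPM in basal cells, and their part in the Notch3 values was not tested.

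Receptor makeup thus differed by layer. Notch1 held 59.1% ± 2.73 of the receptor UMIs in limbal, 15.1% ± 6.05 in superficial and 31.5% ± 5.04 in wing cells, against 44.4% ± 5.28 in basal cells. Notch2 held 60.6% ± 13.4 in superficial and 24.97% ± 11.5 in wing cells, against 14.4% ± 5.81 in basal cells. Notch3 held 43.5% ± 6.45 in wing against 41.2% ± 0.60 in basal cells. Wing cells with mucosal keratin UMIs had less Notch1, at 35.7 ± 4.77 CPM against 60.2 ± 8.11 CPM in wing cells without (class-total scale), and less Notch3, at 52.8 ± 7.24 against 80.1 ± 8.14 CPM. The means of Jag1 (46.0 against 69.7 CPM), Jag2 (4.41 against 8.45), Dll1 (1.71 against 4.10) and Hes1 (264 against 332) were lower too. That of Notch2 was higher (44.4 against 36.4 CPM). The 1252, 1284 and 2523 wing cells with these keratin UMIs in libraries 1, 2 and 3 held 41182011, 31810965 and 40569715 UMIs. The 2036, 2223 and 4090 wing cells without them held 43593284, 40772188 and 56457530 UMIs, so depth per cell differed too. Cells with a UMI of any receptor and cells with a UMI of any ligand were not set apart from each other in the basal layer. At 2000 UMIs per cell 24.5, 20.0 and 19.4% of basal cells with a ligand UMI in libraries 1, 2 and 3 also had a receptor UMI, against 20.99, 18.02 and 19.7% of basal cells without a ligand UMI.

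Hes1, a transcriptional repressor that Notch and several other pathways switch on, was present in every class. TAC1 and TAC2 cells had 189 to 222 and 179 to 233 CPM. In libraries 1, 2 and 3 it had 216, 187 and 294 CPM in limbal, 318, 273 and 293 CPM in conjunctival, 177, 134 and 214 CPM in superficial, 359, 289 and 315 CPM in wing, and 289, 243 and 272 CPM in basal cells. Within each library wing values were the highest of the 7 classes. The TAC1, TAC2 and superficial ranges lay below the basal, conjunctival and wing ranges, and the limbal range overlapped all the others. Hes1 rose in wing against basal cells with a log2 fold change of 0.20 ± 0.05 (edgeR adjusted p = 0.00148), which was 0.02 (edgeR adjusted p = 0.668) with class totals alone and lost its call without library 1 (0.18, adjusted p = 0.0511) and with reassigned classes (0.0717, adjusted p = 0.159). It fell in TAC1 and TAC2 against basal cells with -0.31 ± 0.03 and -0.27 ± 0.05 (edgeR adjusted p = 1.67e-14 and 3.62e-05). In superficial against wing cells it fell with -0.81 ± 0.10 (edgeR adjusted p = 8.86e-05). The limbal drop of -0.28 ± 0.08 (edgeR adjusted p = 0.00805) was present in 2 of 3 libraries and kept its call in 9 of 16 alternatives. It was lost, among others, without library 1 (-0.19, edgeR adjusted p = 0.244) and with class totals alone (-0.16, edgeR adjusted p = 0.156). DESeq2 made no call either (-0.28, DESeq2 adjusted p = 0.0521), and against basal, TAC1 and TAC2 cells summed the value was -0.0874 (edgeR adjusted p = 0.404). Limbal cells with mucosal keratin UMIs had 362 ± 43.8 CPM of Hes1 (class-total scale, mean ± SD) and those without 215 ± 73.8 CPM. Basal cells had 297 ± 29.9 CPM on that scale. Depth per cell differed between the 2 limbal groups. In conjunctival against basal cells Hes1 had 0.08 (edgeR adjusted p = 0.231) with TMM and -0.24 (edgeR adjusted p = 0.0022) with class totals alone. The 10 genes of a dissociation stress list, among them Fos and Jun, summed to 891 to 948 CPM in limbal, 2361 to 3443 CPM in superficial and 1592 to 1761 CPM in wing cells, against 1485 to 1708 CPM in basal cells, and their part in the Hes1 values was not tested.

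Hey1, the other target gene, was close to absent from the data. Its 4 UMIs fell in 1 cell each of the limbal, TAC1, TAC2 and wing classes of library 1. Libraries 2 and 3 had 0, which allows up to 0.112 CPM in basal cells of library 3 and up to 0.0309 CPM in its wing cells. It passed the filter on low counts in no comparison, so 7 of the 8 members were tested.

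**Figure D4:**
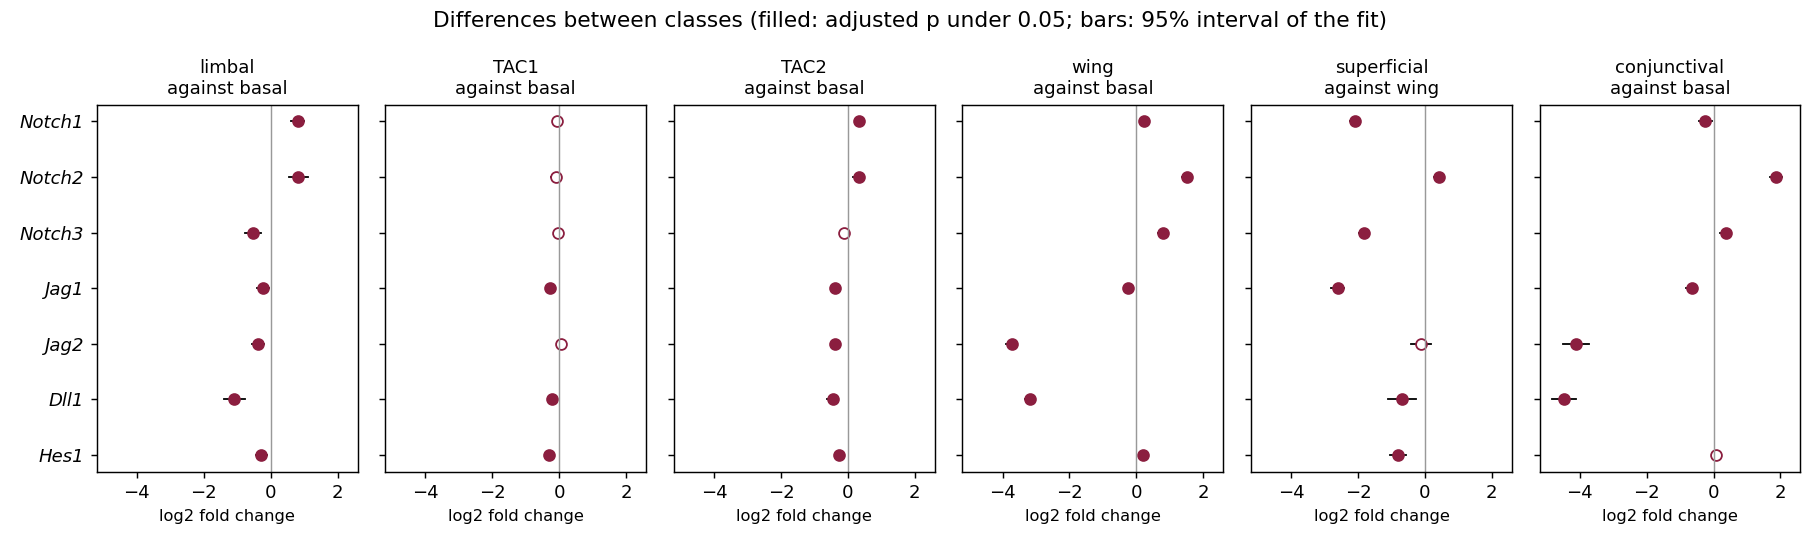
Log2 fold change (x axis) of the 7 tested members (y axis) in the 6 comparisons of classes; filled points have an adjusted p under 0.05, and bars are 95% intervals of the fit. Jag2 and Dll1 lie at -3.72 and -3.18 in wing against basal cells and Notch2 at 1.51, and the positive Notch2 value of 0.41 in superficial against wing cells turns to -0.57 with class totals alone.

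Counts of members called are given beside the share of all genes called in the same comparison. In limbal against basal cells 2 members were higher and 5 lower, against 40.2% of 12116 genes called in either direction, 21.4% higher and 18.8% lower. Without library 1 there were 3 lower members, as Jag1 and Hes1 lost their calls. In TAC1 cells 0 were higher and 3 lower, against 41.6% of 12297 (21.1% higher, 20.5% lower), so the share called was near the background. In TAC2 cells 2 were higher and 4 lower, against 48.5% of 12212 (24.9% higher, 23.7% lower). In wing cells 4 were higher and 3 lower against 77.6% of 13172 (38.8% higher, 38.7% lower), and in conjunctival cells 2 were higher and 4 lower against 77.4% of 12244 (37.3% higher, 40% lower). Superficial against wing cells had 1 higher and 5 lower against 79.7% of 12818 (37.9% higher, 41.8% lower). With background shares this high, the last 3 counts say nothing particular of the members. The median absolute log2 fold change of the members against that of all genes tested was 0.52 against 0.32 in limbal, 0.09 against 0.17 in TAC1, 0.34 against 0.24 in TAC2, 0.79 against 0.54 in wing, 0.81 against 0.81 in superficial and 0.65 against 0.78 in conjunctival comparisons. The 5 comparisons with basal cells share those basal sums.

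Another 59 genes of the pathway in 7 lists were looked at beside the members, and 53 are in the table. In the following accounts CPM are scaled by TMM over the 2 classes compared. In limbal against basal cells 8 of 42 tested genes were higher and 8 lower, a share near that of all genes (21.4% higher, 18.8% lower), and 4 of these 16 calls held under every alternative. Tle1, a Groucho-family corepressor, had 15.6, 12.6 and 10.6 CPM in limbal cells of libraries 1, 2 and 3, against 0.614, 0.750 and 0.720 CPM in basal cells, a log2 fold change of 4.21 ± 0.31 (edgeR adjusted p = 9.70e-17). Dlk2, a Delta-like relative of the ligands, had 47.7, 57.9 and 41.5 CPM against 10.1, 18.8 and 10.6 CPM (1.90 ± 0.13, edgeR adjusted p = 3.35e-18). Nrarp, a feedback inhibitor that is itself a Notch target, had 34.5, 32.9 and 40.9 CPM against 20.4, 20.3 and 15.1 CPM (0.92 ± 0.13, edgeR adjusted p = 1.57e-07). All 3 genes were higher in limbal cells of every library. Lfng, a fringe enzyme that adds sugar to Notch and shifts which ligands it answers, fell to 4.41, 5.86 and 3.92 CPM in limbal cells, against 13.7, 13.8 and 14.4 CPM in basal cells (-1.48 ± 0.21, edgeR adjusted p = 5.76e-08). Of the receptor cleavage list Psen2, a core subunit of gamma-secretase, fell (-1.30 ± 0.18), and the ADAM protease gene Adam10 and the gamma-secretase subunit gene Psenen rose (0.44 ± 0.12 and 0.29 ± 0.08), while 6 of 9 made no call. Bhlhe41, a basic helix-loop-helix repressor related to the Hes genes, fell with -1.32 ± 0.18 and Maml3, a Mastermind coactivator, with -0.74 ± 0.19. Mib1, a ubiquitin ligase that makes ligands active, had a called rise of 0.40 ± 0.12 that was lost without library 1 and without library 2, and Fbxw7, a ligase for the freed Notch domain, a drop of -0.57 ± 0.15 that was lost without library 2.

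In TAC1 against basal cells 1 of 43 was higher and 15 lower, against 21.1% of all genes higher and 20.5% lower, and 1 of these 16 calls held under every alternative. The log2 fold changes were 0.33 ± 0.09 for Pofut1, which adds fucose to Notch, -0.46 ± 0.08 for Psen2, -0.42 ± 0.06 for Maml3 and -0.42 ± 0.06 for Hes6, a Hes-family member that works against Hes1. In TAC2 against basal cells 6 of 44 were higher and 16 lower, against 24.9% of all genes higher and 23.7% lower, and 5 of these 22 calls held under every alternative. Nrarp rose to 32.3, 30.8 and 26.3 CPM in TAC2 cells, against 20.1, 20.0 and 14.8 CPM in basal cells (0.71 ± 0.07, edgeR adjusted p = 2.23e-08), a direction that turned when classes were reassigned. Neurl1b, a ubiquitin ligase of the neuralized family, had 3.99, 6.87 and 6.27 CPM in TAC2 cells, against 0.0378 CPM in basal cells of library 1 and 0 in libraries 2 and 3, and was called higher. Psen2 fell with -1.47 ± 0.10, Dlk2 with -1.27 ± 0.19, Dtx3, a deltex ligase, with -1.01 ± 0.16 and Hes6 with -0.71 ± 0.07.

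The wing layer changed most genes of the pathway, as it did most genes of the table. Of 45 tested 21 were higher and 18 lower in wing against basal cells, against 38.8% and 38.7% of all genes, and 29 of these 39 calls held under every alternative. Lfng fell to 0.967, 1.12 and 0.863 CPM in wing cells, against 12.4, 12.4 and 12.9 CPM in basal cells (-3.69 ± 0.11, edgeR adjusted p = 2.07e-11), and Dlk2 to 0.471, 0.805 and 0.361 CPM, against 9.16, 17.0 and 9.54 CPM (-4.45 ± 0.12, edgeR adjusted p = 1.05e-11). These drops stand beside -3.72 for Jag2 and -3.18 for Dll1. Nrarp, named here after its values were seen, rose to 78.0, 78.7 and 51.9 CPM in wing cells, against 18.4, 18.3 and 13.6 CPM in basal cells (2.04 ± 0.05, edgeR adjusted p = 1.10e-11). Receptor cleavage genes rose in 7 of 9 cases and fell in 2, beside those shares of all genes. Psen2 fell to 4.40, 4.90 and 4.03 CPM in wing cells, against 17.1, 15.9 and 16.7 CPM in basal cells (-1.91 ± 0.08, edgeR adjusted p = 6.21e-10). Of 13 genes of the nuclear complex 6 rose, among them the acetyltransferase gene Kat2b (1.43 ± 0.08) and the corepressor gene Tle3 (0.89 ± 0.06), and 4 fell. Rbpj, the DNA-binding partner of Notch and also named after its values were seen, had 22.9, 22.8 and 20.6 CPM against 23.2, 24.1 and 21.8 CPM and made no call (-0.06 ± 0.05, edgeR adjusted p = 0.326). Further drops were Dtx4 (-3.45 ± 0.42), Dtx3 (-2.35 ± 0.12), Bhlhe41 (-2.33 ± 0.10) and Poglut1, a glucosyltransferase of Notch (-0.88 ± 0.08), and Mib2 rose with 0.68 ± 0.09. Of 10 genes of receptor turnover and feedback 6 rose and 4 fell, and of 4 fringes and glycosyltransferases 3 fell. Of the genes near the lower end of the table Dll3 (-1.82 ± 0.33) and Hes7 (-1.70 ± 0.44) were called lower from means of at most 0.66 CPM in either class.

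**Figure D5:**
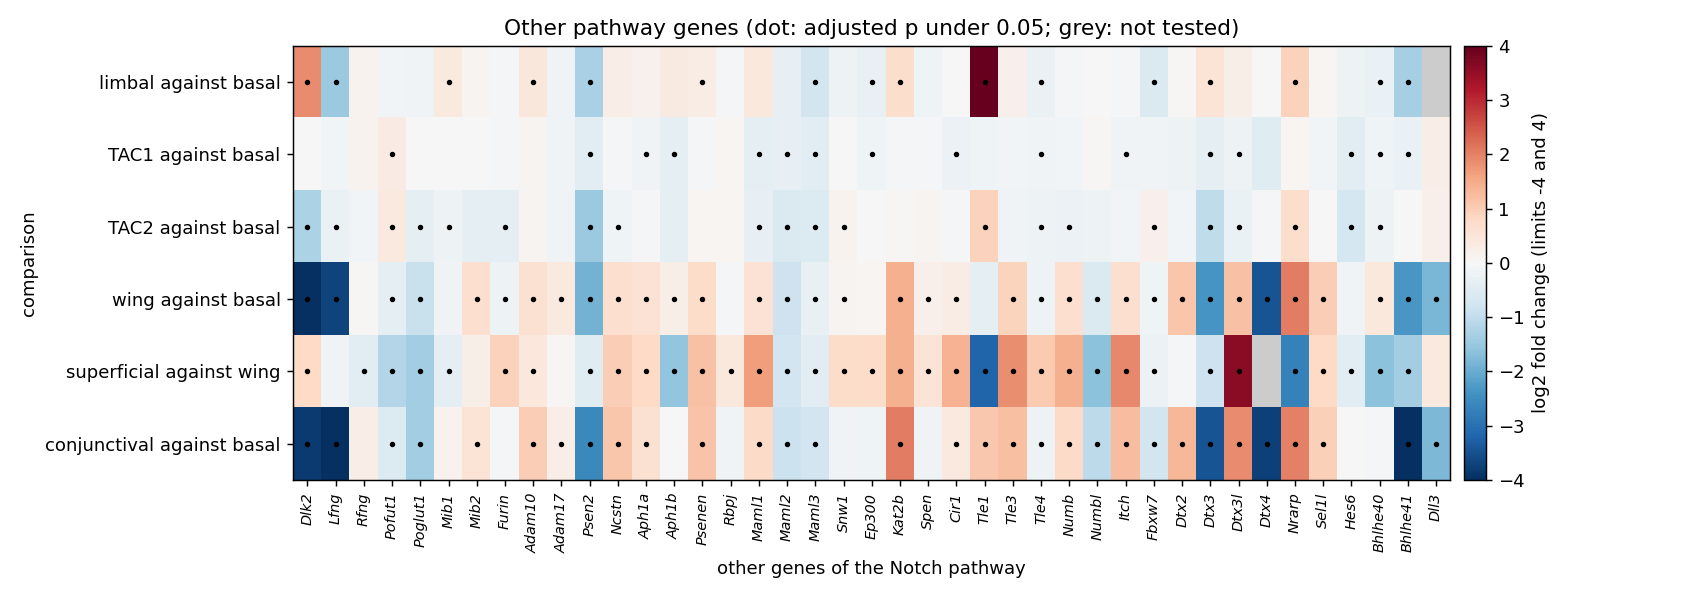
Log2 fold change (colour, limited to -4 and 4) of 41 other pathway genes (x axis) in the 6 comparisons (y axis); dots mark an adjusted p under 0.05 and grey cells were not tested. Lfng and Dlk2 are blue in wing and conjunctival cells while Nrarp and Kat2b are red there, and 9 genes called in superficial against wing cells change sign with class totals alone, among them Furin, Adam10 and Rbpj.

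In superficial against wing cells 20 of 42 were higher and 17 lower with TMM, against 37.9% and 41.8% of all genes. Of these 37 calls 9 changed sign with class totals alone, and 20 held under every alternative. With TMM, 6 of 9 receptor cleavage genes were higher and 2 lower, 9 of 13 nuclear complex genes were higher and 4 lower, and 3 of 4 fringes and glycosyltransferases were lower. Directions that held under both scalings include Dtx3l, an E3 ligase of the deltex family, at 193, 187 and 222 CPM in superficial against 15.6, 16.4 and 17.8 CPM in wing cells (3.60 ± 0.06, edgeR adjusted p = 3.89e-16). Tle3 rose with 1.85 ± 0.07 and the ligase gene Itch with 1.91 ± 0.06. Nrarp fell to 8.39, 7.93 and 5.26 CPM in superficial cells, against 52.5, 52.2 and 34.9 CPM in wing cells (-2.69 ± 0.07, edgeR adjusted p = 2.15e-14). The gamma-secretase subunit gene Aph1b (-1.59 ± 0.18), Bhlhe40 (-1.63 ± 0.07), Bhlhe41 (-1.40 ± 0.16), Poglut1 (-1.38 ± 0.16) and Pofut1 (-1.17 ± 0.14) fell too. Tle1 had 0.0471, 0 and 0.0453 CPM in superficial against 0.250, 0.415 and 0.301 CPM in wing cells. Dlk2, with a called rise of 0.81 ± 0.32, changed sign with class totals alone, and its call was lost without library 2 and without library 3.

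Conjunctival cells were set against the same basal sums as wing cells. Of 43 tested 18 were higher and 15 lower in conjunctival against basal cells, against 37.3% and 40% of all genes, and 25 of these 33 calls held under every alternative. Among them were 6 higher and 1 lower of 9 receptor cleavage genes and 6 higher and 4 lower of 10 turnover and feedback genes. Lfng fell to 0.286, 0.684 and 0.852 CPM in conjunctival cells, against 11.7, 11.9 and 12.3 CPM in basal cells (-4.27 ± 0.23, edgeR adjusted p = 1.40e-09), and Bhlhe41 to 1.52, 1.67 and 0.946 CPM, against 32.3, 26.6 and 12.2 CPM (-4.08 ± 0.16, edgeR adjusted p = 6.01e-11). Dlk2 (-3.84 ± 0.29), Dtx3 (-3.45 ± 0.29), Psen2 (-2.56 ± 0.14) and Poglut1 (-1.38 ± 0.18) fell as well. Dtx4 was called lower with 0.0953, 0.0760 and 0 CPM against 0.527, 0.649 and 1.46 CPM. Dll3 had 0.0953, 0.380 and 0 CPM against 0.592, 0.469 and 0.817 CPM, and its called drop was lost without library 1 and without library 3. Nrarp, again named after its values were seen, rose to 63.6, 64.7 and 64.5 CPM in conjunctival cells, against 17.5, 17.5 and 12.9 CPM in basal cells (2.02 ± 0.10, edgeR adjusted p = 1.41e-09). Kat2b had 27.2, 21.7 and 24.5 CPM against 6.35, 4.58 and 6.84 CPM (2.05 ± 0.11, edgeR adjusted p = 1.65e-09), and Mib2 rose with 0.56 ± 0.16.

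The libraries differed in the members in the same way in nearly every class. Library 3 was the highest of the 3 in 7 of 7 epithelial classes for Notch2, with a median ratio of 2.19 to the mean of libraries 1 and 2, and in 7 of 7 for Jag1, with a median ratio of 1.80. It was the lowest in 6 of 7 classes for Jag2 (0.661) and for Notch1 (0.812). Library 2 was the lowest of the 3 in 7 of 7 classes for Notch2, Jag1 and Hes1. Age, sex, number of mice and depth per cell differ between the libraries together and cannot be told apart, and no test between libraries was made.

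Genes with the pattern most like each member over the 21 sums of the 7 epithelial classes, out of 6893 genes, were found by Pearson's correlation of log2 levels centred on each library. For Jag2 they were Wnt10a, Ftl1 and Bcam with 0.996, 0.995 and 0.994, of which Ftl1, a ferritin gene, shares reads with near-identical copies. Dll1 was most like Antxr1 (0.989), Nrg2 (0.987) and Cpe (0.987), and Jag1 most like Hadh (0.984), F3 (0.984) and Capns2 (0.983). Notch1 was most like Tmem64 (0.977), Phlda3 (0.969) and Fam171a2 (0.958), Notch2 most like Reps2, Epb41l1 and Mindy2 (all 0.988), and Notch3 most like Hacd2 (0.955), Dlg2 (0.949) and Sdc1 (0.948). Hes1 was most like Tcim (0.926), Cbl (0.921) and Mycbp2 (0.913). Among the members themselves the values were 0.976 for Jag2 and Dll1, 0.906 for Notch1 and Jag1, 0.845 for Notch3 and Hes1, and -0.971 for Notch2 and Dll1. By Spearman's rank correlation these pairs had 0.929, 0.536, 0.836 and -0.957, so Notch1 and Jag1 were much less alike by rank. Rank values were also lower for the genes named for Notch1 (0.862, 0.818 and 0.771) and for Jag1 (0.831, 0.829 and 0.874). The 21 sums share libraries and classes, so these values describe the pattern and carry no test.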

How the data were processed

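Droplet 3′ RNA-seq libraries of C57BL/6J corneal epithelium, separated with enzyme and trypsin, were made with a Chromium 3′ kit, per the labels' protocols. Cell Ranger 5.0.0 and Seurat 4 with mm10 are named in the submitters' processing notes. The authors deposited UMI counts of 17931 genes in 38111 cells with a class and a library for each cell. Libraries 2 and 3 were matched by name and library 1 by elimination. Class abbreviations were read from the deposited names. The members and all gene lists were chosen with earlier results of these data known.

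Counts were summed per library and class and tested with edgeR 4.0.16 (R 4.3.3; TMM, filterByExpr, robust quasi-likelihood F test) on the 6 sums of a pair of classes. The library was a block, since both classes of a pair come from the same 3 libraries. P-values were adjusted by Benjamini and Hochberg over all genes tested, with a threshold of 0.05. Standard errors were the log2 fold change over the square root of F. The code was tested on simulated data. Shares of cells used cells thinned to 2000 UMIs, with exact Clopper-Pearson intervals, and a count of 0 allows 3 counts. Likeness used genes of at least 10 CPM and log2(CPM + 1). All members were named. The rule for each other list gave up to 2 called genes per comparison with the largest absolute change and the same sign in every library, and the gene of highest mean level. Not every gene that this rule gave is named in the text. Symbols were found in GENCODE M21 for 17641 of 17931 genes. Genes not in the table were not analysed here. Single results of some pathway genes are not reported here, though list counts include them. Scrublet in scanpy 1.11.5 called 2, 1 and 1 cells and so did not work, and the cells with the highest 10% of scores were left out as an alternative. Other alternatives were DESeq2 1.42.0, no filter, class totals or RLE scaling, leaving out each library, no block, thinned or equal cell numbers, reassigned classes and other class groupings. Python 3.11.15, numpy 2.4.6, pandas 2.3.3, scipy 1.17.1 and matplotlib 3.10.9 were used.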

Additional observations from a re-analysis of the deposited data

Results flagged for a closer look

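Immune cells were in no comparison, and members of the pathway had UMIs there above the 3 that a count of 0 allows. In the 114 immune cells of the 3 libraries together there were 8 UMIs of Notch1, 9 of Notch2, 14 of Notch3, 14 of Jag2 and 41 of Hes1, among 327316 UMIs. On the scale of the class total these are 24.4 CPM for Notch1, 27.5 CPM for Notch2, 42.8 CPM for Notch3 and for Jag2, and 125 CPM for Hes1. Dll1 and Hey1 had 0, which allows up to 9.17 CPM. The share that free RNA takes in these counts was not tested.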

How the results depend on the processing

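Of 609 values of single members under an alternative, 520 kept direction and call, 65 lost the call, 7 gained it and 17 changed sign. Without the replicate block (library), fewer genes and members were called: 1298 genes in TAC1 and 2630 in TAC2 comparisons, 1 member higher and 2 lower in limbal, 0 lower in TAC1, 0 higher and 0 lower in TAC2, 2 higher in wing, 0 higher in superficial and 2 lower in conjunctival comparisons. DESeq2 called 3193 genes in limbal, 2251 in TAC1 and 3389 in TAC2 comparisons, with 3 lower members in limbal and 1 higher in TAC2. Thinning cells to 2000 UMIs left 1966 genes in limbal, 2147 in TAC1, 2895 in TAC2 and 6075 in conjunctival comparisons, with 2 lower members in limbal, 1 higher in TAC2 and 1 higher in conjunctival. Class totals alone gave 3 lower members in limbal, 2 higher in wing, 0 higher in superficial and 1 higher in conjunctival comparisons, with Notch2 at -0.57 (superficial) and Hes1 at -0.24 (conjunctival). The median log2 fold change of all genes moved to 0.11 in limbal, -0.20 in wing, -1.08 in superficial and -0.39 in conjunctival comparisons with that scaling. Reassignment kept 76.8% of cells in their class, unevenly. The share kept was 56.0% of wing, 75.5% of TAC2, 80.6% of TAC1, 84.9% of conjunctival, 85.9% of limbal, 90.4% of basal and 99.7% of superficial cells. Wing cells went from 13447 to 7616 and basal cells from 8829 to 12070. Reassigned classes gave 2 lower members in limbal, 2 higher and 5 lower in TAC1, 1 higher in TAC2 and 1 higher in conjunctival. They gave Jag1 0.00998 and Jag2 0.0399 in limbal, Dll1 0.25 in TAC1, Jag2 0.14 and Dll1 0.0607 in TAC2, Jag2 0.15 in superficial, and Notch3 -0.10 and Hes1 -0.0159 in conjunctival comparisons. Leaving out the highest doublet scores gave 2 lower members in limbal, 1 higher in TAC2 and Jag2 at 0.32 in superficial. A single fit across 7 classes called 3215 genes in TAC1, and 3 lower members in limbal comparisons. There were also 3 lower members in limbal cells without keratin-bearing cells (Jag2 at 0.0582) and 3 against basal, TAC1 and TAC2 summed. TAC1 and TAC2 summed gave 1 member higher, with Notch1 at 0.13, Notch2 at 0.11 and Jag2 at -0.13. The cause of these changes was not tested.

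Leaving out 1 library gave 3458 to 4293 genes and 3 to 5 lower members in limbal, 3685 to 4669 genes and 3 to 4 lower members in TAC1, 4427 to 5834 genes in TAC2, 9571 to 10218 genes and 3 to 4 higher members in wing, 9480 to 9832 genes and 4 to 5 lower members in superficial, and 8574 to 9180 genes and 3 to 4 lower members in conjunctival comparisons. It gave Notch3 -0.0833 to 0.00500 in TAC1 and Jag2 -0.307 to 0.0580 in superficial comparisons, both highest without library 3. At this depth Hey1 could not be tested.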
